A study of Mus musculus with 9 samples.

Results

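The 5 genes described here encode the coat of the mouse egg and the growth factors that the egg secretes: Zp1, Zp2 and Zp3, and Gdf9 and Bmp15. They were chosen by name, with identifiers matched to GENCODE M21 symbols, and are 5 of the 55536 genes in the tables. RNA-seq of polyadenylated RNA was run on 9 mouse ovary samples, 3 in each of 3 groups. Wild-type ovaries had the genotype FOXL2 WT/WT. The other 6 samples were heterozygous, FOXL2 WT/C134W, and were labelled as hyperplasia (3 samples) or granulosa cell tumour (3 samples). The series compares tumours with normal ovaries. The strain and age of the mice, how the allele was made and whether the samples came from separate animals are not given in the sources used here. Hyperplasia library 3 and tumour library 3 share the stem of their titles, and the spread behind each p-value is that among these libraries, which may be technical.

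The zona pellucida is the glycoprotein shell that a growing oocyte lays around itself. ZP2 and ZP3 build its filaments and ZP1 cross-links them. GDF9 and BMP15 are TGF-beta family ligands that the oocyte secretes to the granulosa cells around it, where they bind the type II receptor BMPR2 with the type I receptors TGFBR1 and BMPR1B, signal through SMAD proteins and support follicle growth and cumulus expansion. Transcription of the Zp genes in oocytes depends on FIGLA, a helix-loop-helix factor that binds E-boxes, and that of Gdf9 and Bmp15 on the homeobox factor NOBOX. In the adult ovary all 5 genes are known as oocyte genes. Ovaries are bulk samples, and levels are relative to all RNA of a sample. Fewer oocytes, less RNA per oocyte and more RNA from other cells therefore cannot be told apart.

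Zp1 (ENSMUSG00000024734) lies on GRCm38 chromosome 19 from 10914287 to 10920632, minus strand. Zp2 (ENSMUSG00000030911) lies on chromosome 7 from 120126772 to 120145291, minus strand. Zp3 (ENSMUSG00000004948) lies on chromosome 5 from 135980099 to 135988624, plus strand. Gdf9 (ENSMUSG00000018238) lies on chromosome 11 from 53431023 to 53437904, plus strand. Bmp15 (ENSMUSG00000023279) lies on chromosome X from 6314107 to 6320721, minus strand. No other annotated gene overlaps any of them, and their expected counts were whole numbers in all 9 libraries, so no read was shared out between one of these genes and another gene.

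The 250 bases before the start of Zp3 and of Bmp15 are shown because the levels of the 5 genes followed each other closely across libraries. Whether shared regulation had a part in this was not tested. The E-box and homeobox motifs searched are of the kinds that FIGLA and homeobox factors bind, and TATAA, searched too, is of neither kind. They are from RefSeq on GRCm38.p6, whose promoter table matched 2 of the 5 genes, and are read 5′ to 3′ on the gene's strand. Zp3 is at chr5:135979855-135980104 (plus) and Bmp15 at chrX:6320725-6320974 (minus). Capitals mark matches to the motifs searched on both strands: CANNTG (the E-box), TAATTG and TAATTA (homeobox motifs) and TATAA.
Zp3: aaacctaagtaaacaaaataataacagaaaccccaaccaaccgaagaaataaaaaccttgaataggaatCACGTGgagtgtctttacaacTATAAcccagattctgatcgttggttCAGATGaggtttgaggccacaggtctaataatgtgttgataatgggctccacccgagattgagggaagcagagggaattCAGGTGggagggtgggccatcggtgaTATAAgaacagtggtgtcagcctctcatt
Bmp15: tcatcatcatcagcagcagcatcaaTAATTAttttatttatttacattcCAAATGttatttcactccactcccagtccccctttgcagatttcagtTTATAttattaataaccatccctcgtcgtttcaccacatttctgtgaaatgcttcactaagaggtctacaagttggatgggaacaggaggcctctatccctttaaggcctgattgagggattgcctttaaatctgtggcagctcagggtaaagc

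The Zp3 window held 3 matches to CANNTG, which began 181, 134 and 55 bases before the start. The Bmp15 window held 1, at 201 bases. Of 32851 promoter windows of the same length, 66.2% held this motif, with a median of 1 match. TATAA was found 29 and 160 bases before the start of Zp3, and once on the other strand of Bmp15, at 154 bases. It was in 22.8% of windows. TAATTA was found once, 225 bases before the start of Bmp15, and was in 4.8% of windows. TAATTG was in neither window and in 7.2% of all. These are matches of letters, with no measurement of binding behind them.

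Library totals ran from 11661820 counts (tumour 3) to 20890487 (wild type 1). Levels between libraries are in CPM (counts scaled to library size with TMM factors), and levels between genes are in TPM, which also divides by transcript length. A count of 3 in 1 library corresponded to 0.144 to 0.292 CPM, and over a whole group the same 3 counts to 0.0550 CPM (wild type), 0.0562 CPM (hyperplasia) and 0.0804 CPM (tumours). A count of 0 allows a level of up to these floors, and all floors and intervals cover counting error only. Foxl2 itself, the forkhead factor of granulosa cells, stood at 176 ± 28.6 CPM (SD, n = 3) in the wild-type libraries, 217 ± 109 CPM in hyperplasia and 294 ± 83.6 CPM in tumours. Its counts sum both alleles and do not check the genotype labels.

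In wild-type ovaries Gdf9 was the highest of the 5 genes per length, at 31.7, 34.6 and 48.6 TPM in libraries 1 to 3. Zp3 followed at 24.0, 25.9 and 31.0 TPM, and Zp2 at 17.8, 25.0 and 29.7 TPM. Zp1 was at 11.4, 10.8 and 12.7 TPM, and Bmp15 at 5.82, 10.2 and 12.4 TPM. By mean the order was Gdf9 (38.3 ± 9.0 TPM), Zp3 (27.0 ± 3.58), Zp2 (24.1 ± 6.0), Zp1 (11.6 ± 0.967) and Bmp15 (9.48 ± 3.36, all SD, n = 3). Zp3 and Zp2 overlapped, as did Zp1 and Bmp15, and the lowest Gdf9 value lay just above the highest of Zp3. Wild type 1 gave the lowest TPM of every gene but Zp1, for which the deposited gene length was 1275 bases in that library against 1963 and 1905 in the other two. Across the 16213 genes tested, the deviation of that library from the mean of the other 8 went down with gene length (Spearman's rho −0.574, against −0.256 to 0.357 in the others). The part of this in the order of levels was not tested.

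**Figure D1:**
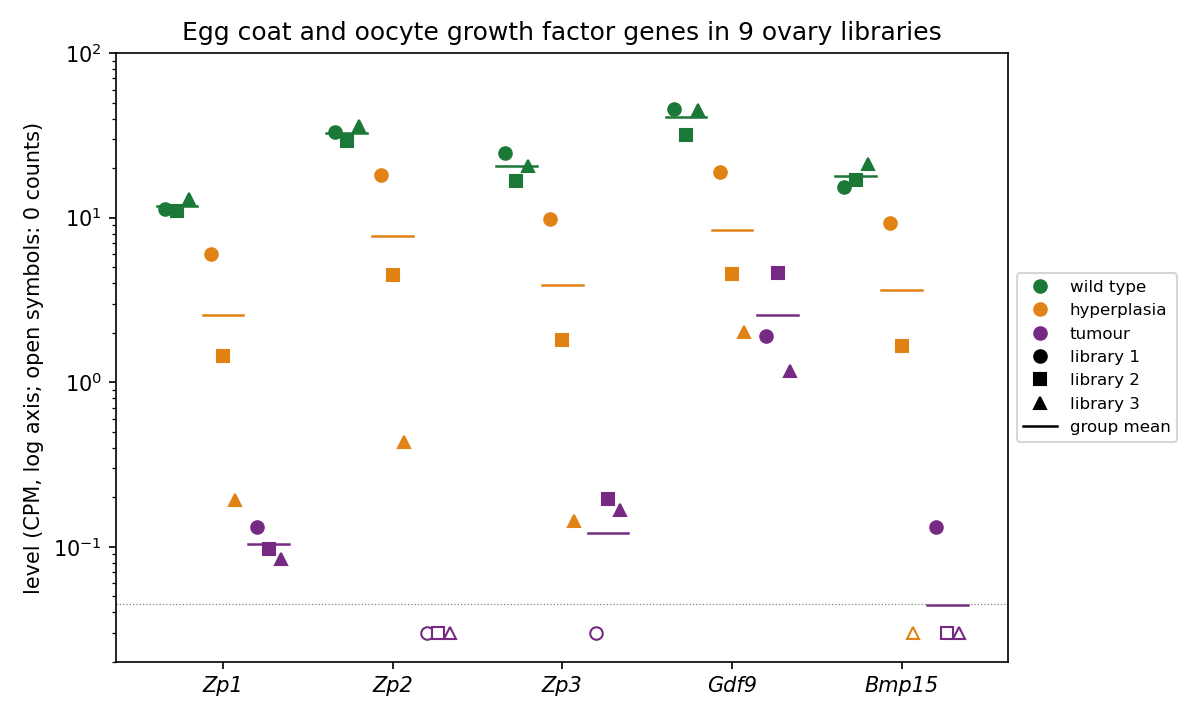
CPM on a log axis of each gene in each library, coloured by group, with the library number as the symbol and the group mean as a bar. Open symbols under the dotted line are libraries with 0 counts. The wild-type libraries lie above all others for each of the 5 genes, the hyperplasia libraries spread widely, and only Gdf9 stays above 1 CPM in the tumours.

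The egg coat genes were near or at 0 in all 3 tumours. Zp2, one of the filament proteins, had 665, 498 and 624 counts in the wild-type libraries (33.0, 29.3 and 35.8 CPM), 341, 62 and 9 in hyperplasia (18.2, 4.49 and 0.431 CPM) and 0, 0 and 0 in the tumours. The wild-type mean of 32.7 ± 3.28 CPM (SD, n = 3) was at least 407-fold higher than 3 counts over the tumour group. The fitted log2 fold change of −12.05 (SE 2.04) was called at the threshold of 0.05 by edgeR's quasi-likelihood test, but is no bound, since it depends on the prior count (Benjamini-Hochberg adjusted p = 0.0464 by edgeR).

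Zp3, the other filament protein, had 496, 283 and 360 counts in wild type (24.6, 16.6 and 20.7 CPM), 183, 25 and 3 in hyperplasia (9.79, 1.81 and 0.144 CPM) and 0, 2 and 2 in the tumours (0, 0.195 and 0.168 CPM). Every tumour library was below every wild-type library, and all tumour values were under the floor of 3 counts. Over the groups the wild-type level was 195 times the tumour level, from 4 tumour counts (exact 95% counting interval 75.9 to 716). Zp3 fell, with a log2 fold change of −7.44 (SE 1.49, Benjamini-Hochberg adjusted p = 0.0471 by edgeR).

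Zp1, the cross-linking protein, had 226, 187 and 225 counts in wild type (11.2, 11 and 12.9 CPM), 113, 20 and 4 in hyperplasia (6.04, 1.45 and 0.191 CPM) and 2, 1 and 1 in the tumours (0.132, 0.0974 and 0.0839 CPM). The 3 groups did not overlap. The wild-type level was 109 times the tumour level, again from 4 tumour counts (42.4 to 402). Zp1 fell, with a log2 fold change of −6.68 (SE 1.19, Benjamini-Hochberg adjusted p = 0.0404 by edgeR).

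Bmp15, the X-linked growth factor, had 307, 289 and 370 counts in wild type (15.2, 17.0 and 21.2 CPM), 173, 23 and 0 in hyperplasia (9.25, 1.66 and 0 CPM) and 2, 0 and 0 in the tumours (0.132, 0 and 0 CPM). It was the only one of the 5 with a hyperplasia library at 0. The ratio of wild type to tumour was 330, from 2 tumour counts (91.2 to 2732). The log2 fold change was −8.22 (SE 1.84) and missed the threshold (Benjamini-Hochberg adjusted p = 0.0613 by edgeR), although the groups did not overlap.

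Gdf9, the other growth factor, kept counts in every library. It had 915, 541 and 786 counts in wild type (45.4, 31.8 and 45.1 CPM), 352, 63 and 42 in hyperplasia (18.8, 4.56 and 2.01 CPM) and 29, 47 and 14 in the tumours (1.92, 4.58 and 1.17 CPM). Tumours and wild type did not overlap, whereas tumour 2 was at the level of hyperplasia 2. The wild-type level was 17.0 times the tumour level (13.8 to 21.3). The log2 fold change of −4.01 (SE 0.84) was just outside the threshold (Benjamini-Hochberg adjusted p = 0.0537 by edgeR).

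In tumours against wild type, 3 of the 5 genes thus passed the test as lower, all 3 of them egg coat genes, and all 5 had an unadjusted p under 0.05. Of all genes tested, 1.25% passed as lower, and 3262 of 16213 had an unadjusted p under 0.05, lower or higher. Groups did not overlap, with tumours lower, for 5 of the 5 genes and for 13.4% of all genes. The median log2 fold change of the 5 genes was −7.44, also with Zp2 at its bound, against 0.01 over all genes tested. The adjusted p values of the 5 genes lie between 0.0404 and 0.0613, on both sides of the threshold, and whether the egg coat genes differ in their change from the growth factor genes was not tested. A term for the 2 libraries with a shared title stem left 0 of the 5 past the threshold (adjusted p from 0.0523 to 0.0957). Leaving out any 1 of the 6 libraries (wild type 1, 2 or 3, tumour 1, 2 or 3) also left 0, with adjusted p from 0.0601 to 0.158. Over all genes, 0 were called with the title stem term and 0 to 69 with 1 library left out, lower or higher. The calls lost in these fits, here and in the lists below, are to be set beside that general loss. With DESeq2 all 5 passed, and 1747 genes in all were called, lower or higher. The list counts in tumours given below, at an unadjusted p under 0.05 and by DESeq2, are to be set beside these numbers for all genes.

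The hyperplasia libraries did not form 1 level. Hyperplasia 1 held 46.1% to 55.7% of the wild-type mean CPM over the 5 genes (median 51.6%), hyperplasia 2 held 8.76% to 13.7% (median 11.2%), and hyperplasia 3 held 0% to 4.93% (median 1.32%). In hyperplasia 1 and 2 the 5 genes lay close to each other. In hyperplasia 3 they spread from Bmp15 at 0% to Gdf9 at 4.93%. The median gene with at least 1 CPM in wild type was at 96.0%, 97.0% and 97.2% of its wild-type mean in the same libraries. In the tumours the 5 genes held 0% to 4.70%, 0% to 11.2% and 0% to 2.88%, with Gdf9 at the top in each.

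**Figure D2:**
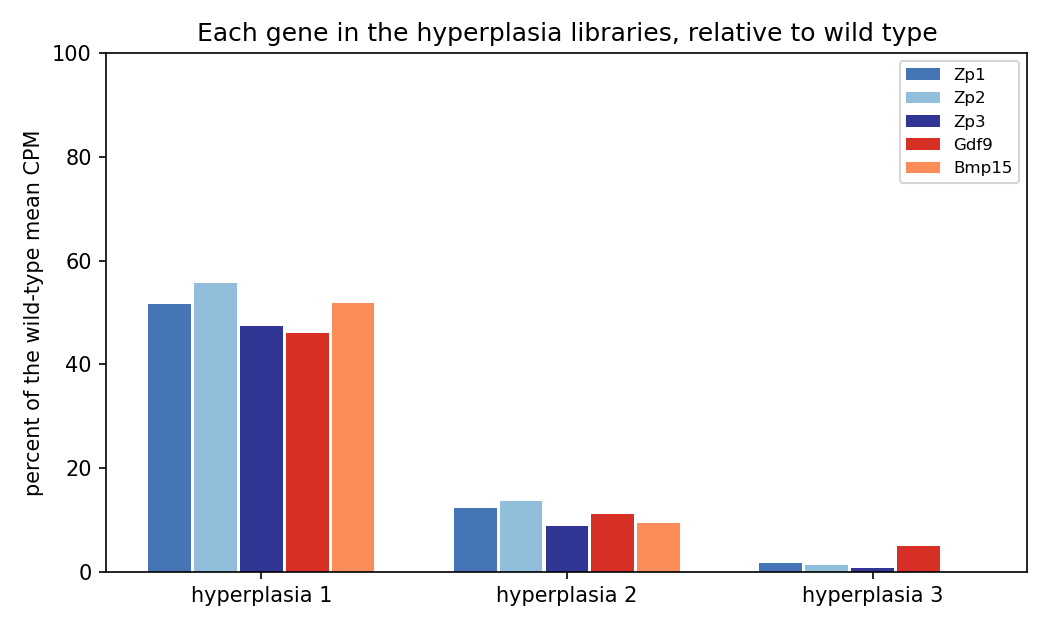
Bars give the CPM of each gene in each hyperplasia library as a percent of its wild-type mean, on an axis from 0 to 100. The 5 genes stand at 46.1% to 55.7% in hyperplasia 1, 8.76% to 13.7% in hyperplasia 2 and 0% to 4.93% in hyperplasia 3.

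Against wild type, 0 of the 5 genes passed in hyperplasia by edgeR's quasi-likelihood test, and 0 by DESeq2. Over all genes 0% passed as lower by edgeR, and DESeq2 called 18 genes, lower or higher. Unadjusted p was under 0.05 for 2 of the 5, Zp1 and Gdf9, and for 572 of the 16213 genes tested. The fitted log2 fold changes were −2.19 for Zp1 (SE 0.88), −2.08 for Zp2 (SE 1.03), −2.40 for Zp3 (SE 1.07), −2.27 for Gdf9 (SE 0.77) and −2.29 for Bmp15 (SE 1.23), each with an adjusted p of 0.999 (edgeR, Benjamini-Hochberg). All 3 hyperplasia libraries lay below all 3 wild-type libraries for 5 of the 5 genes, against 5.18% of all genes. The hyperplasia means were 2.56 ± 3.08 CPM for Zp1, 7.72 ± 9.33 for Zp2, 3.91 ± 5.15 for Zp3, 8.46 ± 9.06 for Gdf9 and 3.64 ± 4.93 for Bmp15 (SD, n = 3). Each SD was larger than its mean.

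Between tumours and hyperplasia, 0 of the 5 genes passed as lower, against 0.185% of all genes, while 4 had an unadjusted p under 0.05 and DESeq2 called 3 (Zp1, Zp2 and Zp3). Of the 16213 genes tested, 2287 had an unadjusted p under 0.05, and DESeq2 called 816 genes, lower or higher. The log2 fold changes were −4.49 for Zp1 (SE 1.14), −9.96 for Zp2 (SE 2.09, tumours at 0), −5.05 for Zp3 (SE 1.43), −1.74 for Gdf9 (SE 0.78) and −5.93 for Bmp15 (SE 1.80), with adjusted p from 0.125 to 0.361 (edgeR, Benjamini-Hochberg). Groups did not overlap for 2 of the 5, Zp1 and Zp2, and for 12.4% of all genes. This comparison turned on hyperplasia 3, the library that shares its title stem with tumour 3: without it 4 of the 5 passed, all but Gdf9. Calls over all genes rose too without that library, from 30 to 128, lower or higher. Both comparisons with tumours use the same 3 tumour libraries, and both with wild type the same 3 wild-type libraries.

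Proportions among the 5 genes were compared between wild type and the 2 hyperplasia libraries with at least 20 counts of each gene. Relative to Zp1, Zp3 and Gdf9, Zp2 was higher in both of these than in any wild-type library, a difference that was not tested. Relative to Bmp15 it was higher only in hyperplasia 2. That TPM ratio was 2.39 to 3.05 in wild type, 2.86 in hyperplasia 1 and 3.84 in hyperplasia 2. By counts Zp2 made up 25.5% to 27.7% of the 5 genes in wild type (exact 95% binomial intervals within 23.8% to 29.8%). Its share was 29.3% in hyperplasia 1 (26.7% to 32.1%) and 32.1% in hyperplasia 2 (25.6% to 39.2%), overlapping those intervals. The TPM ratio of Zp1 to Zp3 was 0.410 to 0.476 in wild type, 0.392 in hyperplasia 1 and 0.507 in hyperplasia 2. The ratio of Zp2 to Zp3 was 0.739 to 0.963, 1.06 and 1.38. That of Zp1 to Zp2 was 0.428 to 0.644, 0.371 and 0.368, and that of Zp2 to Gdf9 was 0.560 to 0.721, 0.762 and 0.777. The ratio of Gdf9 to Bmp15 was 3.39 to 5.45, 3.75 and 4.94. Gdf9 made up 35.1%, 30.1% and 33.2% of the counts of the 5 genes in the wild-type libraries, 30.3% in hyperplasia 1 (exact 95% binomial interval 27.7% to 33.0%) and 32.6% in hyperplasia 2 (26.1% to 39.7%).

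In the other 4 libraries Gdf9 made up most of the few counts left. Its share was 72.4% in hyperplasia 3 (42 of 58 counts, 59.1% to 83.3%), 87.9% in tumour 1 (29 of 33, 71.8% to 96.6%), 94.0% in tumour 2 (47 of 50, 83.5% to 98.7%) and 82.4% in tumour 3 (14 of 17, 56.6% to 96.2%). These shares lay above those of the 3 wild-type libraries beyond counting error. Per length the picture was the same, with Gdf9 at 32.5% to 36.2% of the summed TPM in wild type and 89.1% to 92.6% in the tumours. This is no separate check in tumours 1 and 3. There the deposited gene length of Gdf9 was shorter (1478 and 923 bases, against 1759 to 1793 in wild type), which raises its TPM. The summed level of the 5 genes was 106 to 136 CPM in wild type, 62.1, 14.0 and 2.78 CPM in hyperplasia and 2.18, 4.87 and 1.43 CPM in the tumours.

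**Figure D3:**
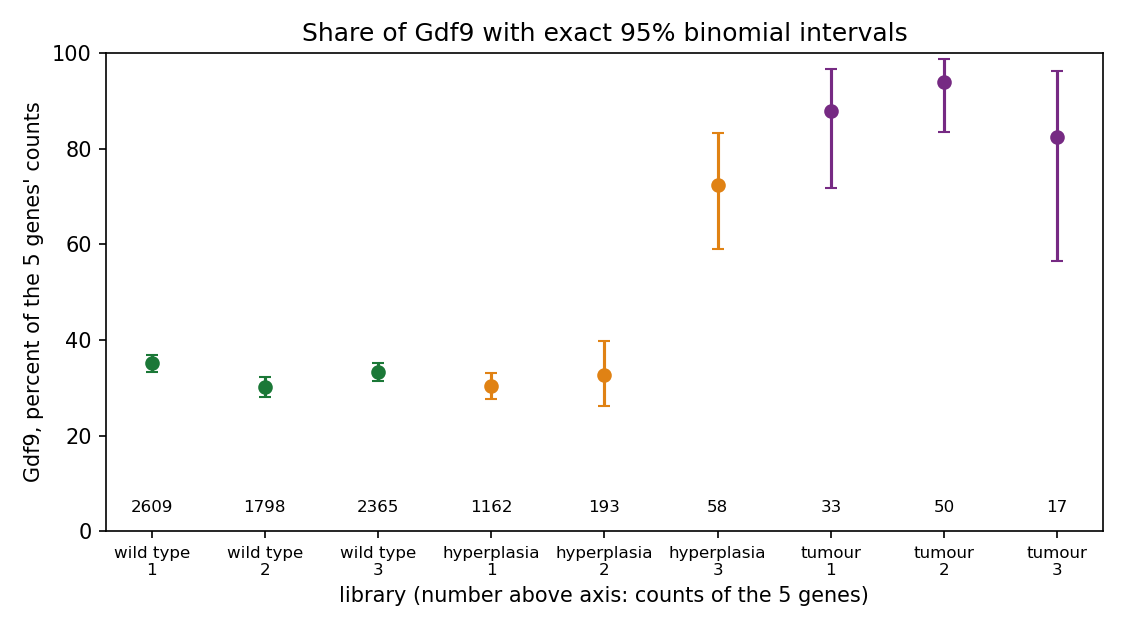
Points give the share of Gdf9 among the counts of the 5 genes in each library, with exact 95% binomial intervals, and the number above the axis is the count of all 5. Wild type and hyperplasia 1 and 2 lie between 30.1% and 35.1%, and hyperplasia 3 and the tumours between 72.4% and 94.0%, on 17 to 58 counts.

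The annotation gives Gdf9 1 coding transcript (Gdf9-201, 2 exons, 1793 bases) and 2 short non-coding ones (Gdf9-202, 382 bases, and Gdf9-203, 429 bases). The exon junctions that set them apart are shown because the remaining tumour counts could lie on either kind. Each is read from the GENCODE M21 transcripts (GRCm38 chromosome 11, plus strand), with the last 15 bases of the upstream exon in lower case and the first 15 of the downstream exon in capitals.
Gdf9-201 (exon end 53433802, next exon start 53436616, within the coding sequence): gcaaccaggtgacagGACCGCTGCCGATGG
Gdf9-202 (53433049 and 53433607): ctccagccctaagagGTTCTATCTGATAGG
Gdf9-203, first junction (53431052 and 53432938): gcttgtgggcttacgTAAGCCATCAGTTAT
Gdf9-203, second junction (53433049 and 53436616): ctccagccctaagagGACCGCTGCCGATGG

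The second junction of Gdf9-203 joins the same downstream exon as the coding junction, from another donor. RSEM's gene length is the mean of the transcript lengths weighted by their estimated abundance, so it gives the share of the coding transcript without the reads. For Gdf9 the deposited gene length was 1766, 1793 and 1759 bases in wild type, 1755, 1793 and 1346 in hyperplasia and 1478, 1793 and 923 in the tumours. The coding transcript then made up 97.2% to 100% of Gdf9 transcripts in wild type and in hyperplasia 1 and 2. It made up 67.2% to 68.3% in hyperplasia 3, 76.9% to 77.6% in tumour 1, 100% in tumour 2 and 36.2% to 38.4% in tumour 3, the range coming from which short transcript takes the rest.

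In reads the difference was small, since a short transcript needs few of them. Of the Gdf9 counts, 39.3 to 40.0 of 42 fell to the coding transcript in hyperplasia 3, 27.7 to 28.0 of 29 in tumour 1, all 47 in tumour 2 and 11.3 to 12.0 of 14 in tumour 3. Most of the Gdf9 counts in the tumours were therefore assigned to the coding transcript, and the lower transcript shares rest on about 3 reads or fewer in each library.

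Other oocyte genes were measured beside them with 12 markers of the oocyte. In tumours 7 of the 12 passed as lower and 0 as higher, with 11 at an unadjusted p under 0.05, and the median log2 fold change was −7.39, also with genes at 0 set to their bound. Dppa3, a maternal chromatin factor, fell from 10.3 ± 6.07 to 0.05 ± 0.0442 CPM (log2 fold change −7.41, SE 1.13). Nlrp14, an NLR family gene of the oocyte, fell from 52.9 ± 8.58 to 0.0280 ± 0.0484 CPM (−10.58, SE 1.68). Npm2, the egg nucleoplasmin, fell from 9.72 ± 2.32 to 0.0765 ± 0.0685 CPM (−6.81, SE 1.21). Bcl2l10, a BCL2 relative, was at 15.7 ± 7.37 CPM in wild type and at 0 in all tumours, at least 195-fold lower. The adjusted p of these 4 ran from 0.0339 to 0.0449 (edgeR, Benjamini-Hochberg). None of the 7 calls held with the title stem term (0.0523 to 0.0982) or with any 1 library left out (0.0544 to 0.138), whereas DESeq2 called 11 of the 12.

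The markers were at a median of 41.0%, 10.9% and 1.75% of their wild-type means in hyperplasia 1, 2 and 3, and at 0%, 0% and 0.0793% in the tumours. Their order over the hyperplasia libraries was that of the 5 genes. Their summed level was 191 to 249.7 CPM in wild type, 106, 25.4 and 17.0 CPM in hyperplasia and 21.9, 0.292 and 14.3 CPM in tumours. In hyperplasia 3, tumour 1 and tumour 3 this sum came mostly from Ooep, a gene of the egg's subcortical complex, named here after its values were seen. It had 494, 181 and 237 counts in wild type, 122, 37 and 269 in hyperplasia and 311, 0 and 142 in the tumours, and did not pass the test (log2 fold change −0.58, SE 1.16, Benjamini-Hochberg adjusted p = 0.826 by edgeR). Beside the Gdf9 counts of the tumours, 4 of the 12 markers, Zar1, Nlrp5, Bcl2l10 and H1foo, were at 0 in all 3 tumour libraries. The others kept at least 1 count in a tumour. Padi6 had 22 counts in hyperplasia 3 and 7, 0 and 23 in the tumours. Dazl had 24 in hyperplasia 3 and 10, 1 and 3 in the tumours. Zar1, Nlrp5, H1foo, Padi6 and Dazl are named after their values were seen. In tumour 2, which held the most Gdf9 counts, 9 of the 12 markers were at 0, Ooep among them.

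Of the transcriptional regulators of these genes, 3 of 6 had enough counts to be tested, and 1 passed as lower in tumours by edgeR. All 3 had an unadjusted p under 0.05, and DESeq2 called 2 lower and 1 higher. Lhx8, a LIM-homeobox factor of the oocyte, had 37, 23 and 33 counts in wild type, 7, 3 and 1 in hyperplasia and 0 in each tumour, at least 21.1-fold lower (adjusted p = 0.0404 by edgeR). Its adjusted p was 0.0542 with the title stem term and 0.0559 to 0.124 with 1 library left out. Nobox had 91, 58 and 101 counts in wild type, 50, 11 and 8 in hyperplasia and 12, 1 and 5 in tumours, with a log2 fold change of −3.32 (SE 0.85) that did not pass (adjusted p = 0.0768). Nobox was not at 0 in any library, nor were Gdf9, Zp1, Dazl and Taf4b. In tumour 2, where Gdf9 had 47 counts, Nobox had 1. Taf4b, a TFIID subunit of germ cells that somatic cells also express, did not pass (log2 fold change 1.25, SE 0.41, adjusted p = 0.131). Figla, the E-box factor of the Zp genes, had 13, 8 and 13 counts in wild type, 6, 1 and 0 in hyperplasia and 0 in each tumour, too few to be tested, and is named after its values were seen.

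Of 6 genes of the egg surface and of the processing of the coat, 0 passed in tumours by edgeR, with 5 at an unadjusted p under 0.05 and 5 called lower by DESeq2. Of the 6, 4 were at 0 in all tumours. Astl encodes ovastacin, the protease that cleaves ZP2 after fertilization. It had 149, 163 and 219 counts in wild type, 106, 21 and 1 in hyperplasia and 0 in each tumour, and its wild-type mean was at least 123-fold above the tumour floor. Oosp1, Oosp2 and Oosp3 encode oocyte-secreted proteins. Their wild-type means were at least 115-fold, 17.3-fold and 31.2-fold above the tumour floor. The adjusted p of the 4 genes lay between 0.0614 and 0.0670 (edgeR, Benjamini-Hochberg). The median log2 fold change of the list was −7.92, or −5.34 with the genes at 0 set to their bound.

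The receptors of GDF9 and BMP15 were measured at high levels in all groups, and 0 of 4 passed in tumours by edgeR. Unadjusted p was under 0.05 for 1, Bmpr1b, and DESeq2 called 1 higher. Bmpr2, the type II receptor, had a wild-type level of 414 ± 102 CPM and a tumour level of 564 ± 41.4 CPM (log2 fold change 0.45, SE 0.28). Bmpr1b, the type I receptor that BMP15 binds, was at 84.2 ± 29.6 and 200 ± 37.1 CPM (1.25, SE 0.36). Tgfbr1, the type I receptor used by GDF9, was at 196 ± 29.4 and 153 ± 85.9 CPM (−0.35, SE 0.36), and Bmpr1a at 168 ± 42.4 and 179 ± 59.4 CPM (0.09, SE 0.30). Adjusted p ran from 0.107 to 0.908 (edgeR, Benjamini-Hochberg). The median log2 fold change was 0.27.

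Among the SMAD genes, 1 of 8 passed in tumours by edgeR and 2 had an unadjusted p under 0.05, while DESeq2 called 1 lower and 1 higher. The median log2 fold change was −0.01. Smad9, a receptor-activated SMAD of the BMP branch, had 246, 421 and 317 counts in wild type, 234, 278 and 189 in hyperplasia and 41, 5 and 32 in the tumours. All tumour libraries were below all others. Smad9 fell from 18.4 ± 6.27 to 1.96 ± 1.28 CPM (log2 fold change −3.21, SE 0.61, Benjamini-Hochberg adjusted p = 0.0453 by edgeR). This call was lost with the title stem term (adjusted p = 0.0976 by edgeR) and when any 1 of the 6 libraries was left out (0.0529 to 0.127). Smad3, of the activin and TGF-beta branch that GDF9 uses, had a wild-type level of 80.7 ± 20.3 CPM and a tumour level of 205 ± 32.2 CPM and did not pass (1.35, SE 0.33, adjusted p = 0.0696). Smad2 (0.60, SE 0.28) and the inhibitory Smad7 (−0.49, SE 0.31) did not pass either.

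Of 5 genes for proprotein convertases, which cut TGF-beta family precursors, and for antagonists, 0 passed in tumours by edgeR, with 3 at an unadjusted p under 0.05, and DESeq2 called 1 lower and 1 higher. Grem1, a secreted BMP antagonist that cumulus cells make in response to the oocyte, had 1043, 223 and 2658 counts in wild type, 1656, 80 and 132 in hyperplasia and 0, 17 and 0 in the tumours (log2 fold change −7.17, SE 1.82, Benjamini-Hochberg adjusted p = 0.0758 by edgeR). The 3 convertases were at log2 fold changes of 2.55 for Pcsk6 (SE 0.86), 1.93 for Pcsk5 (SE 0.83) and −0.21 for Furin (SE 0.28). The SD of Pcsk5 and Pcsk6 in tumours came close to their means (515 ± 412 and 302 ± 259 CPM).

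Granulosa and cumulus cell genes known as targets of the oocyte factors gave 0 of 9 tested past the threshold of edgeR in tumours, while 6 had an unadjusted p under 0.05 and DESeq2 called 5 lower. Their median log2 fold change was −1.16. Ptgs2, the prostaglandin synthase of cumulus expansion, had 6, 33 and 20 counts in wild type, 143, 58 and 118 in hyperplasia and 3, 1 and 0 in the tumours. It was thus higher in each hyperplasia library than in each wild-type library, the opposite order to that of the 5 oocyte genes. The share of all genes with that order was not counted. Ptgs2 did not pass in any comparison by edgeR. Its log2 fold change was 2.37 in hyperplasia against wild type (SE 0.74, adjusted p = 0.999 by edgeR). It was −3.34 in tumour against wild type (SE 0.92, adjusted p = 0.0943) and −5.71 in tumour against hyperplasia (adjusted p = 0.0607 by edgeR). Tnfaip6 and Ptx3, which build the cumulus matrix, were at −2.37 (SE 0.77) and −1.64 (SE 0.55), and Pfkp, a glycolytic kinase, at −1.16 (SE 0.33), with adjusted p from 0.1 to 0.143.

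**Figure D4:**
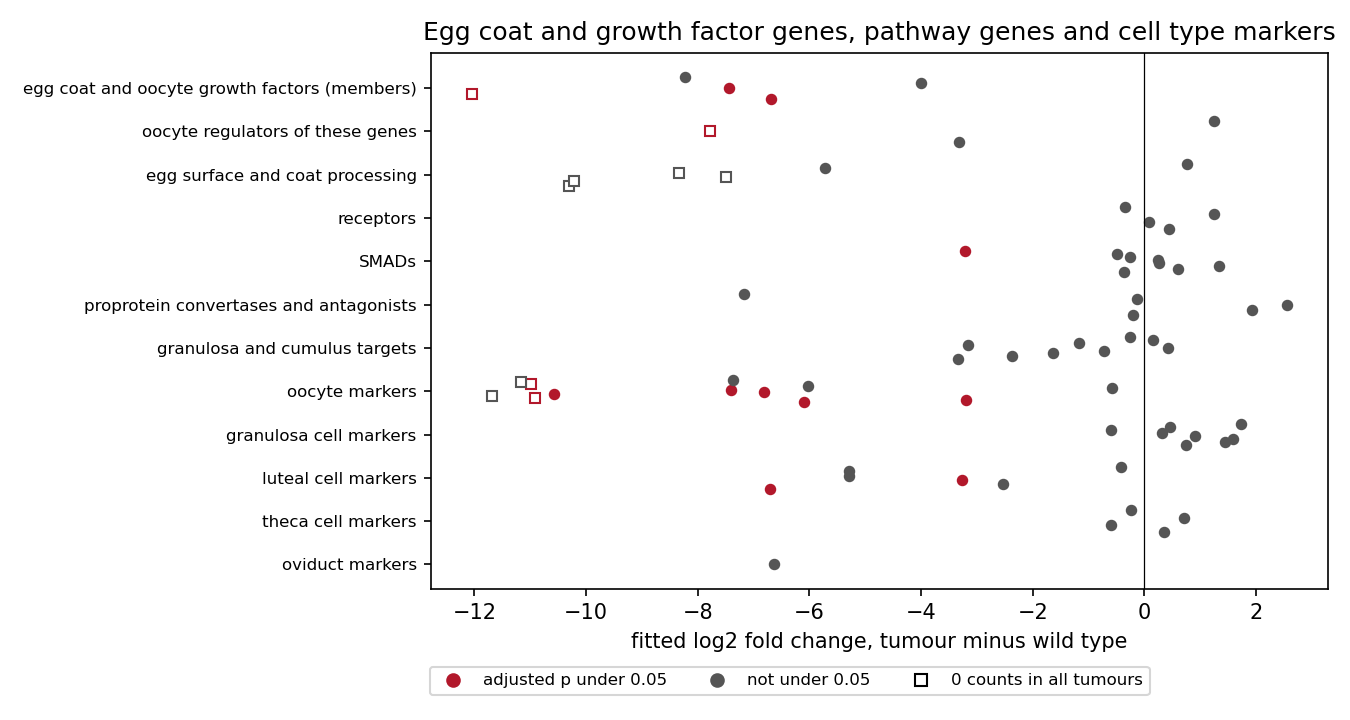
Each point is the fitted log2 fold change of 1 tested gene, tumour minus wild type, in rows by list; red marks an adjusted p under 0.05 and open squares genes with 0 counts in all tumours, whose fitted value is no bound. The 5 egg coat and growth factor genes and all oocyte markers but Ooep lie below −3, and the 4 receptors lie between −0.35 and 1.25.

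Markers of other ovarian cells were measured beside them. The summed level of 8 granulosa cell markers was 1431 to 3144 CPM in wild type, 934 to 2910 in hyperplasia and 3753 to 4702 in tumours, and 0 of the 8 passed by edgeR, with 2 at an unadjusted p under 0.05 and 2 called higher by DESeq2 (median log2 fold change 0.83). Inha made up most of this sum in the tumours (2399, 2816 and 3017 CPM). In tumours 7 of the 8 were fitted higher and 1 lower. The sum of 6 luteal markers was 948 to 8465 CPM, 3795 to 4270 and 210 to 317 CPM, with Sfrp4 at 5403 of the 8465 CPM in wild type 1. Of the 6, 2 passed as lower in tumours by edgeR, Ptgfr and Prlr, while 5 had an unadjusted p under 0.05 and 5 were called lower by DESeq2. Both edgeR calls were lost with the title stem term (adjusted p = 0.0523 and 0.0965). With 1 library left out Prlr was lost each time, and Ptgfr passed in 2 of 6 fits, without tumour 2 and without wild type 2. Theca markers gave 0 of 4, at an unadjusted p under 0.05 and by DESeq2 too (median 0.06). Of 4 oviduct markers 1 could be tested, Ovgp1, which did not pass and had 1381 counts in wild type 2 against 1 to 131 in the other libraries. In hyperplasia against wild type no gene of the lists given here passed by edgeR, and DESeq2 called Ovgp1 only. In tumours against hyperplasia 1 passed by edgeR, Ptgfr, a call that was lost with the title stem term (adjusted p = 0.0743) and when any 1 library other than hyperplasia 3 was left out. Over all genes, 12 were called in that comparison with the term and 0 to 128 with 1 library left out. What part these cell types had in the levels of the 5 genes was not tested.

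The 5 genes were close to each other over the 9 libraries, with Pearson's r of log2 CPM from 0.920 (Zp2 and Gdf9) to 0.994 (Zp1 and Bmp15). These r describe libraries that fall into groups and share their depth, and they carry no p. The genes outside the set with the pattern most like the mean of the 5, over the 9 libraries, were Nlrp4a (r = 0.999), Oas1e (0.998), Accsl (0.998), Nlrp4f (0.998) and Oog4 (0.997). Nlrp4a had 113, 104 and 130 counts in wild type, 65, 10 and 1 in hyperplasia and 0 in each tumour. All 5 of these genes were at 0 in each tumour, as Zp2 was, and at 2 counts or fewer in hyperplasia 3. Since they were chosen for this likeness in the same libraries, these low counts largely restate the choice.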

How the data were processed

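For each of the 9 samples 1 table per library was deposited that lists RSEM's expected counts, TPM and FPKM by gene, per the file headers. The submitters' processing notes name STAR 2.7.1a, RSEM 1.3.1, Picard 2.8.1 and FastQC with genome build GRCm38. The library kit was stranded, per the labels' protocols; the strand setting and annotation used in counting are not given in the sources used here. The deposited expected counts are not normalized and were rounded to whole numbers. The deposited TPM, scaled by the authors for length and depth, served for levels between genes and for an alternative. The deposited FPKM were not used. Wild type, hyperplasia and tumour (3 libraries each) were fitted together with edgeR 4.0.16 in R 4.3.3: TMM, filterByExpr (minimum count 10, total 15), quasi-likelihood test, Benjamini-Hochberg over 16213 genes, threshold 0.05. SE is the log2 fold change divided by the square root of F. DESeq2 1.42.0 and limma 3.58.1 served for alternatives. The edgeR step was tested on simulated data. Named are the 5 genes, up to 4 tested genes of each list with the smallest p in tumour against wild type, and the 5 genes outside the set with the highest r of log2 CPM (prior count 2) with their mean, predicted loci left out. The members, lists and tests were chosen with earlier results of these data known. Replicate numbers were given in accession order and pair no samples.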

Additional observations from a re-analysis of the deposited data

How the results depend on the processing

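In tumours against wild type, 3 of the 5 genes passed as lower in the fit described above. The count was 5 with the DESeq2 Wald test, without the low-count filter, with limma on log2(TPM + 1) or log2(TPM + 0.1), and with only the 2 groups compared. It was 3 with DESeq2 size factors and 2 with limma-voom (Zp2 and Gdf9). It was 0 with a term for the 2 libraries whose titles share a stem, and 0 to 0 when any 1 of the 6 libraries was left out, where tests with 2 libraries in a group assume the spread of the others. In hyperplasia against wild type the count was 0 under every alternative run. In tumours against hyperplasia, 0 in the fit described above, it was 3 with DESeq2, 1 without the low-count filter (Zp2), and 0 to 4 when 1 library was left out, the 4 being without hyperplasia 3. With only those 2 groups, Gdf9 alone passed the low-count filter. Over all genes, the 259 called in tumours against wild type became 1747 with DESeq2, 721 without the filter, 428 and 461 on log2(TPM + 1) and log2(TPM + 0.1), 0 with the title stem term and 0 to 69 with 1 library left out. The 30 called in tumours against hyperplasia became 816, 199, 76, 115, 12 and 0 to 128 in the same order, 4 with limma-voom and 1 with only the 2 groups. The causes were not tested. TPM in place of CPM moved 0 of 10 group means, as percents of the wild-type mean, by more than 1 SD of the group. It moved 2 of 9 Gdf9 shares, both in wild type, beyond their counting interval. For the means this says little in hyperplasia, where each SD was larger than its mean, and for Zp2 in tumours, at 0 by both measures. No paired analysis was possible because the replicate numbers are names only. Depth limits Zp1, Zp3 and Bmp15 in tumours, which hold 4, 4 and 2 counts over the group.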
